A study of Arabidopsis thaliana with 18 samples.

Results

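Transcripts of Arabidopsis thaliana root tips were compared between the dwf4 mutant given brassinolide (BL) and untreated wild type. The comparison rests on 4 of the 18 libraries of the study, 2 of BL-treated dwf4 and 2 of untreated wild type, all chosen by their labels and read at 36 bp. The 2 libraries of untreated dwf4, read at the same length, showed where each transcript had started before BL. Plants were 7-day-old seedlings in the Col-0 background, grown upright on 0.5x MS medium in continuous light, and the section of the primary root nearest the tip was taken. Treated dwf4 roots had received 100 nM BL for 4 h. The labels name no dwf4 allele. They leave unsaid if paired libraries of one group stem from different cultures, so p-values measure the spread between these libraries, which may be technical. A mock-treated group is lacking among the 36 bp libraries, so BL effects and those of handling cannot be told apart there. At 101 bp the study read 8 libraries used here for comparison, 2 each of mock-treated Col-0, BL-treated Col-0, untreated bri1-116, which lacks a working BRI1 receptor, and untreated bri1-116;bzr1-1D, in which a dominant BZR1 allele is added.

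Brassinosteroids are plant steroid hormones that drive cell elongation. DWF4 encodes the 22α-hydroxylase that catalyses a rate-limiting step of their synthesis, so dwf4 plants are poor in the hormone and short. BL binds the receptor kinase BRI1 with its co-receptor BAK1, which leads to inactivation of the kinase BIN2 and lets the transcription factors BZR1 and BES1 accumulate in the nucleus. BZR1 and BES1 repress the genes of hormone synthesis, a feedback that keeps the hormone level in bounds, and they bind the promoter motifs CGTGTG and CGTGCG, known as BRRE motifs, as well as the E-box that includes CACGTG.

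BL did not return the dwf4 transcriptome to wild type. After 4 h of BL, 3674 of 19558 tested genes, or 18.8%, differed from untreated wild type (adjusted p below 0.05, edgeR quasi-likelihood test with Benjamini-Hochberg adjustment), 1883 (9.63%) higher and 1791 (9.16%) lower. Of these, 717 differed more than 2-fold. Untreated dwf4 differed from wild type at 2487 genes (12.7%), 937 (4.79%) higher and 1550 (7.93%) lower. Within dwf4, 2602 genes (13.3%) differed between BL-treated and untreated roots, 1537 (7.86%) higher and 1065 (5.45%) lower with BL. These comparisons share libraries, so their counts are not independent. The number of genes that differed after BL depended on single libraries. It was 1034 and 1084 when wild-type replicate 1 or 2 was left out and 1789 and 2327 when BL-treated dwf4 replicate 1 or 2 was left out. In bulk tissue, fewer cells of a type and less RNA per cell cannot be told apart.

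In a principal component analysis the first component, with 45.7% of the variance, placed untreated dwf4 between the wild type and BL-treated dwf4. Wild type scored -26.3 and -25.3, untreated dwf4 -5.21 and 4.23, and BL-treated dwf4 30.7 and 21.8. On the second component, with 31.6% of the variance, the BL-treated libraries at 11.2 and 13.1 lay beside the wild type at 12.4 and 13.8, away from untreated dwf4 at -27.7 and -22.9. The BL-treated libraries thus lay back beside wild type along one component and further from it along the other. BL and handling cannot be told apart in this shift.

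**Figure D1:**
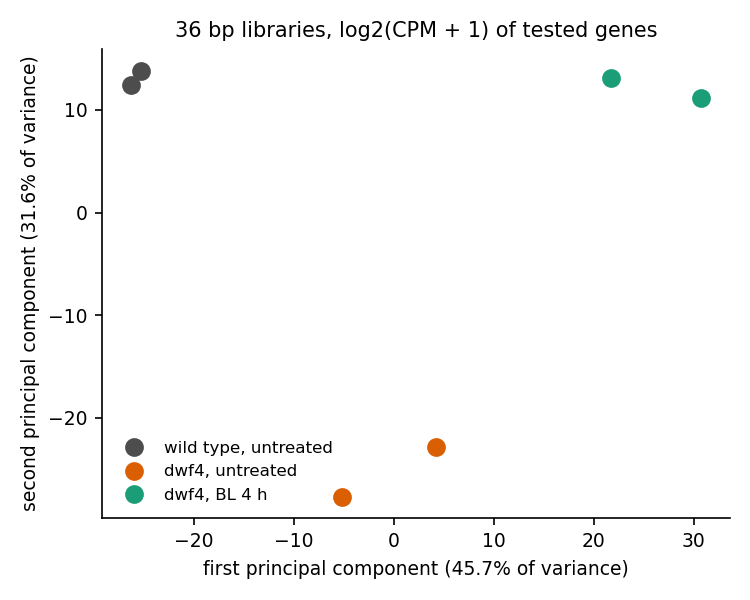
Scores of the 6 libraries of 36 bp on the first (horizontal, 45.7% of variance) and second (vertical, 31.6%) principal components of log2(CPM + 1) over the tested genes, 1 point per library. BL-treated dwf4 lies level with wild type on the vertical axis and at the opposite end of the horizontal axis.

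Each of the 2487 genes that had differed in untreated dwf4 was placed by where BL left it. A gene was called back near wild type when it no longer differed and the 95% interval of its difference lay within 1.5-fold of wild type. By this measure 805 genes (32.4%) were back, 276 that had been higher and 529 that had been lower. Another 1223 genes (49.2%) still differed in the same direction, 431 higher and 792 lower. A further 156 genes (6.27%) had crossed the wild-type level and differed in the opposite direction, 62 that had been higher and 94 that had been lower. For 303 genes (12.2%) the interval was too wide to place them. Of the genes that had not differed in untreated dwf4, 1049 moved away from wild type with BL, 661 up and 388 down, and 1246 passed the threshold only in the comparison of BL-treated dwf4 with wild type. Without wild-type replicate 1 or 2 the counts were 318 and 302 still changed, 26 and 23 beyond wild type, and 155 and 123 back, and without BL-treated replicate 1 there were 752 still changed.

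Among the 1223 genes that still differed, 1068 (87.3%) had no significant change upon BL. Another 69 moved toward wild type without reaching it and 86 moved further away. Over all tested genes 13.3% were called upon BL within dwf4, so the genes that still differed were near the share of all genes. The 86 and 69 were counted after the values had been seen.

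The gene that is mutated in dwf4 was itself among those moved away. DWF4 transcripts stood at 49.8 and 51.9 CPM (counts scaled to a common library total) in wild type, 47.6 and 48.5 in untreated dwf4 and 24.5 and 24.0 in BL-treated dwf4. Levels in untreated dwf4 and wild type lay close together, so the transcript level does not check the allele, while both BL-treated libraries lay far below all others. The BL-treated level was 0.478 times wild type (adjusted p = 8.84e-05), or -1.07 on the log2 scale with an SE of 0.0710. Among the 100 tested loci nearest to DWF4, 50 on each side, 16 differed after BL and 6 of them stayed changed, beside 18.8% and 6.25% over all tested genes.

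Transcripts of hormone synthesis genes that differed from wild type after BL lay below it. Of 10 synthesis genes, all tested, 5 were lower than wild type after BL and none was higher, beside 9.16% and 9.63% over all tested genes. The median log2 fold change was -0.21 beside -0.01 over all tested genes. BR6OX2, which encodes the oxidase that forms BL in the last step, had 24.4 and 27.2 CPM in wild type, 81.1 and 69.8 in untreated dwf4 and 5.90 and 7.12 after BL. The 3 groups did not overlap, and dwf4 went from the highest to the lowest level, ending at 0.252 times wild type (adjusted p = 8.84e-05, log2 fold change -1.99, SE 0.133). CPD, another gene of the synthesis list, went from 59.5 and 61.8 CPM in untreated dwf4 to 23.0 and 22.5, beside 36.2 and 38.8 in wild type. CYP90D1 of the same list went from 82.5 and 76.8 CPM to 36.6 and 31.6, beside 62.5 and 61.9. For CPD and CYP90D1 too, wild type lay between the dwf4 groups without overlap (log2 fold change after BL -0.72 and -0.87). ROT3 was slightly lower than wild type at a log2 fold change of -0.28, a call lost without any 1 of the 4 libraries. DET2, DWF1, DWF5, DWF7 and BR6OX1, which encode the other enzymes of the list, did not pass the test after BL, with log2 fold changes from -0.14 to 0.11.

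Genes that inactivate the hormone ended at different levels relative to wild type. Of the 5 tested, 3 were lower and none was higher in untreated dwf4, beside 7.93% and 4.79% over all tested genes. Within dwf4, 4 were higher with BL and none was lower, beside 7.86% and 5.45%. BAS1, a cytochrome P450 that hydroxylates brassinosteroids, rose from 10.4 and 10.9 CPM in untreated dwf4 to 37.2 and 39.4, beyond the 16.6 and 15.2 of wild type (log2 fold change 1.27, adjusted p = 0.000105). Its relative SOB7 returned to wild type, with 48.5 and 51.3 CPM after BL beside 48.3 and 51.7, up from 24.1 and 31.0. BAT1, an acyltransferase that acts on brassinosteroid intermediates, stayed low. It had 240.3 and 262 CPM in wild type, 118 and 122 in untreated dwf4 and 143 and 167 after BL, which is 0.618 times wild type (adjusted p = 0.000964). BEN1, a reductase, ended above wild type at a log2 fold change of 0.55, with calls lost without either wild-type library or BL-treated replicate 1. BIA1 did not pass the test, and 2 of the 7 members were too low to be tested. Thus 2 of the 5 tested members were higher than wild type and 1 was lower, beside 9.63% and 9.16% over all tested genes.

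**Figure D2:**
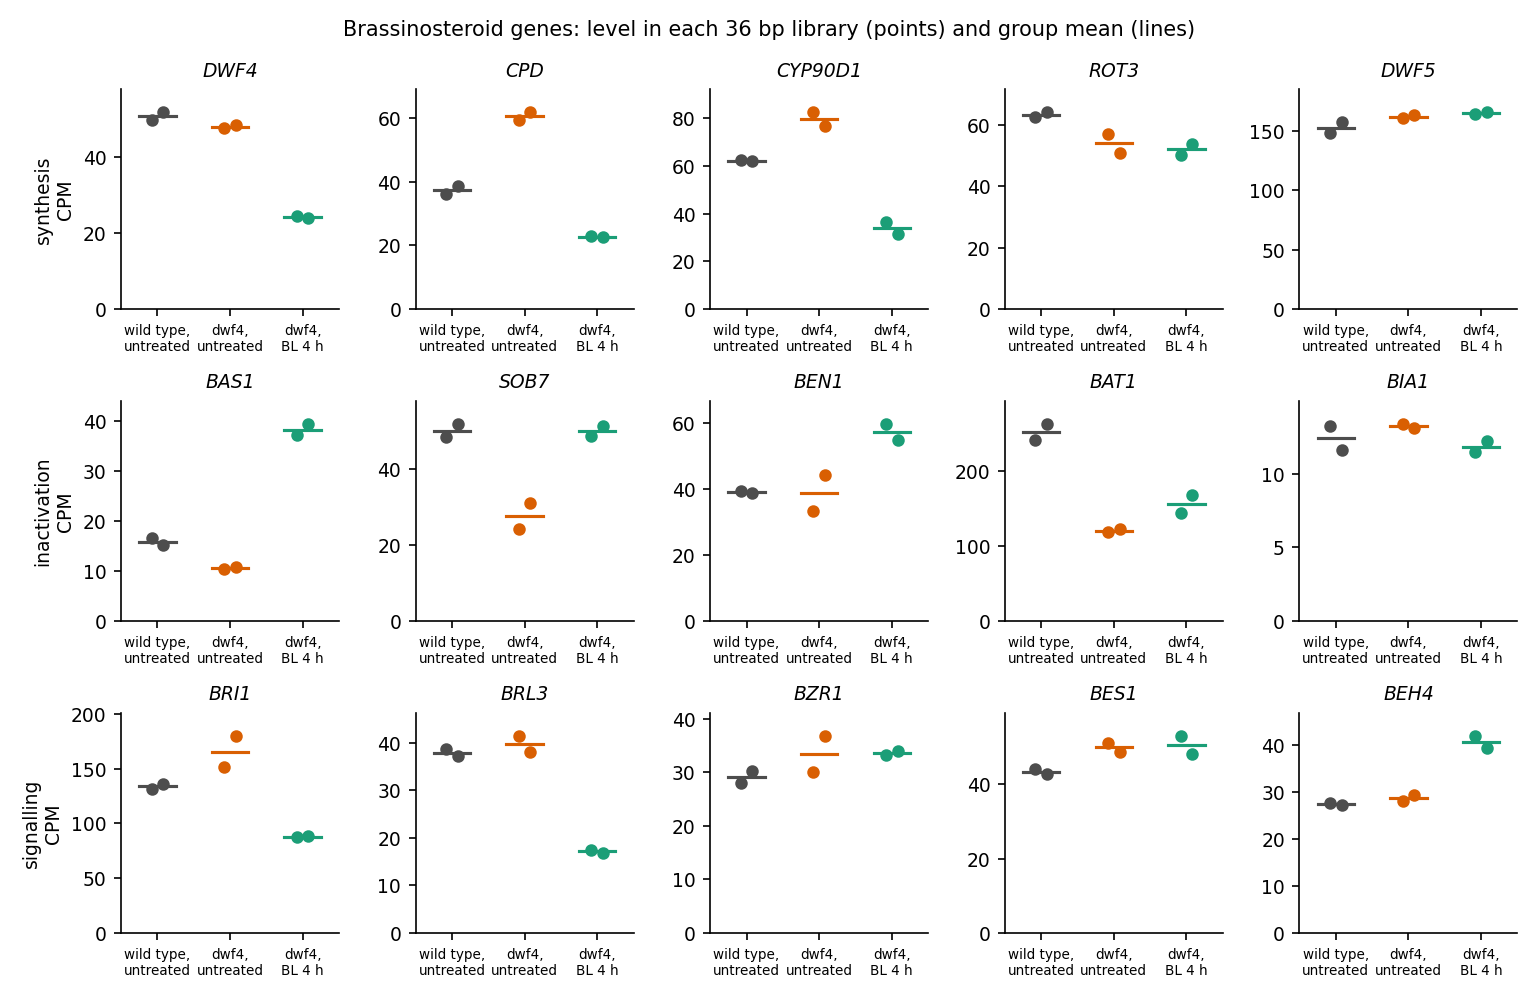
CPM of 15 brassinosteroid genes (vertical axes from 0, each gene on its own scale) in the 2 libraries (points) of each group, with lines at group means. BR6OX2, not drawn here, stands with the genes beyond wild type. CPD and CYP90D1 cross wild type downward after BL, BAS1 crosses it upward, SOB7 returns to it and BAT1 stays below.

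Receptors fell below wild type while most cytoplasmic components did not pass the test. Of 18 signalling genes 16 were tested. After BL 5 were lower and 2 higher (median log2 fold change 0.06), beside 9.16% lower and 9.63% higher over all tested genes. The receptor gene BRI1 had 131 and 136 CPM in wild type, 151 and 180 in untreated dwf4 and 87.4 and 88.5 after BL (adjusted p = 0.00210), which is -0.61 on the log2 scale with an SE of 0.0828. Its homologue BRL3 fell from 38.7 and 37.2 CPM in wild type to 17.5 and 16.8, a level untreated dwf4 did not share at 41.4 and 38.1. All BL-treated libraries lay below all others for both receptors. BEH2, a homologue of BZR1, crossed wild type from 102 and 103 CPM in untreated dwf4 to 22.6 and 21.9, beside 60.1 and 51.9 (log2 fold change -1.33, SE 0.0869, adjusted p = 8.84e-05). Its homologue BEH4 went the other way, from 27.6 and 27.3 CPM in wild type to 41.9 and 39.4. BRL1 and BKI1, the latter an inhibitor of BRI1, were lower at -0.53 and -0.63, and BIN2 was higher at 0.22. These 3 calls were each lost without either wild-type library. That of BRL1 was also lost without BL-treated replicate 2, and those of BKI1 and BIN2 without either BL-treated library. The transcription factor genes BZR1 and BES1 did not pass the test, at log2 fold changes of 0.20 and 0.22, nor did BAK1 at 0.06.

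Genes outside the brassinosteroid lists also ended beyond wild type. MYB55, a MYB transcription factor gene, had 12.8 and 13.6 CPM in wild type, 23.5 and 24.0 in untreated dwf4 and 3.77 and 2.69 after BL (log2 fold change -2.04, adjusted p = 0.000157). DES-1-LIKE, a sphingolipid desaturase gene, fell from 4.75 and 3.85 CPM to 0.236 and 0.363, beside 2.56 and 1.62 in wild type. In the opposite direction GA2OX8, a gibberellin-inactivating oxidase gene, rose from 0.712 and 0.335 CPM to 10.9 and 8.14, beside 1.84 and 1.62 in wild type (adjusted p = 0.000544, log2 fold change 2.46). EXLA2, an expansin-like gene, rose from 2.69 and 3.85 CPM to 29.1 and 29.0, beside 9.05 and 8.04 (log2 fold change 1.77). ACS5, which encodes an enzyme that makes the ethylene precursor, rose from 1.98 and 2.26 CPM to 16.6 and 11.5, beside 4.81 and 4.60. In each of these 5 genes wild type lay between the dwf4 groups, with no overlap among the 3 groups.

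The 250 bases before the annotated start of 3 of these genes are shown because 2 of the genes fell past wild type and 1 rose past it. They were read from the RefSeq TAIR10.1 genome on the strand of the gene. Capitals mark the motif CGTGTG (spelled CACACG where it lies on the other strand), the motif CGTGCG (then spelled CGCACG) and the motif CACGTG, which reads alike on both strands. BEH2 (chr4:17334356-17334605, minus strand) held 3 matches to CGTGTG, 1 to CGTGCG and 3 to CACGTG, of which several overlap. No other gene that fell past wild type held as many matches to CGTGTG, so BEH2 is not typical of them. BR6OX2 (chr3:11810476-11810725, plus strand) and GA2OX8 (chr4:11302432-11302681, plus strand) held none in this window.
BEH2: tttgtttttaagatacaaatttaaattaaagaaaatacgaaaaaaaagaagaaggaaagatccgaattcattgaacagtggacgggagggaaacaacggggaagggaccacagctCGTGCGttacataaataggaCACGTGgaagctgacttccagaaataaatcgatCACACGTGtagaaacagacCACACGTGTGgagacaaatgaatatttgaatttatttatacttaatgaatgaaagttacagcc
BR6OX2: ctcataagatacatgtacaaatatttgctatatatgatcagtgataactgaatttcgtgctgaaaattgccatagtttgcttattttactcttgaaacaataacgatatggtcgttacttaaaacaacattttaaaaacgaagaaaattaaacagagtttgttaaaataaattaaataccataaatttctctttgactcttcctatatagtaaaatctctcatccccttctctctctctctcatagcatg
GA2OX8: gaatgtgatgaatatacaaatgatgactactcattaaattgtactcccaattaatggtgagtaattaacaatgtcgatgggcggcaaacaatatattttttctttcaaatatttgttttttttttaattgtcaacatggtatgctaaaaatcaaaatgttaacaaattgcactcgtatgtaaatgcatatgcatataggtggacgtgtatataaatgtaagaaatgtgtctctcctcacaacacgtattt
Over all 19511 tested genes with such a window, 7.04% held CGTGTG or CGTGCG on either strand. The share was 12 of the 62 genes (19.4%) that had been higher in untreated dwf4 and ended below wild type, and 3 of the 94 (3.19%) that had been lower and ended above. Among genes still higher after BL it was 12.1% and among those still lower 6.35%. For genes back near wild type it was 9.42% where they had been higher and 5.48% where they had been lower. CACGTG stood in 15.3% and 4.31% of the still higher and still lower genes, beside 7.27% over all windows. Its shares were 14.1% and 5.48% in genes back near wild type and 9.68% and 5.32% in those beyond it, had been higher first. These are matches of letters, described without a test.

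Genes that came back near wild type covered several functions. STR18, a sulfurtransferase gene, had 26.2 and 31.1 CPM in wild type, 81.9 and 68.8 in untreated dwf4 and 29.2 and 26.7 after BL, a log2 difference of -0.04 with a 95% interval from -0.31 to 0.23. AN3, a coactivator gene that promotes leaf cell proliferation, went from 69.9 and 54.8 CPM to 35 and 37.7, beside 34.7 and 33.6. The BL-treated and wild-type libraries of STR18 overlapped, and those of AN3 lay next to each other. From below, the cellulose synthase-like genes CSLB01, CSLB02 and ATCSLB05 were restored together. CSLB02 went from 7.91 and 8.45 CPM to 17.5 and 19.8, beside 18.6 and 19.8 in wild type, and its interval ran from -0.28 to 0.20. These 3 genes are close homologues, and reads shared between them could have been split. SULTR2;2, a sulfate transporter gene, went from 6.25 and 4.77 CPM to 9.44 and 11.2, beside 10.8 and 12.2.

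**Figure D3:**
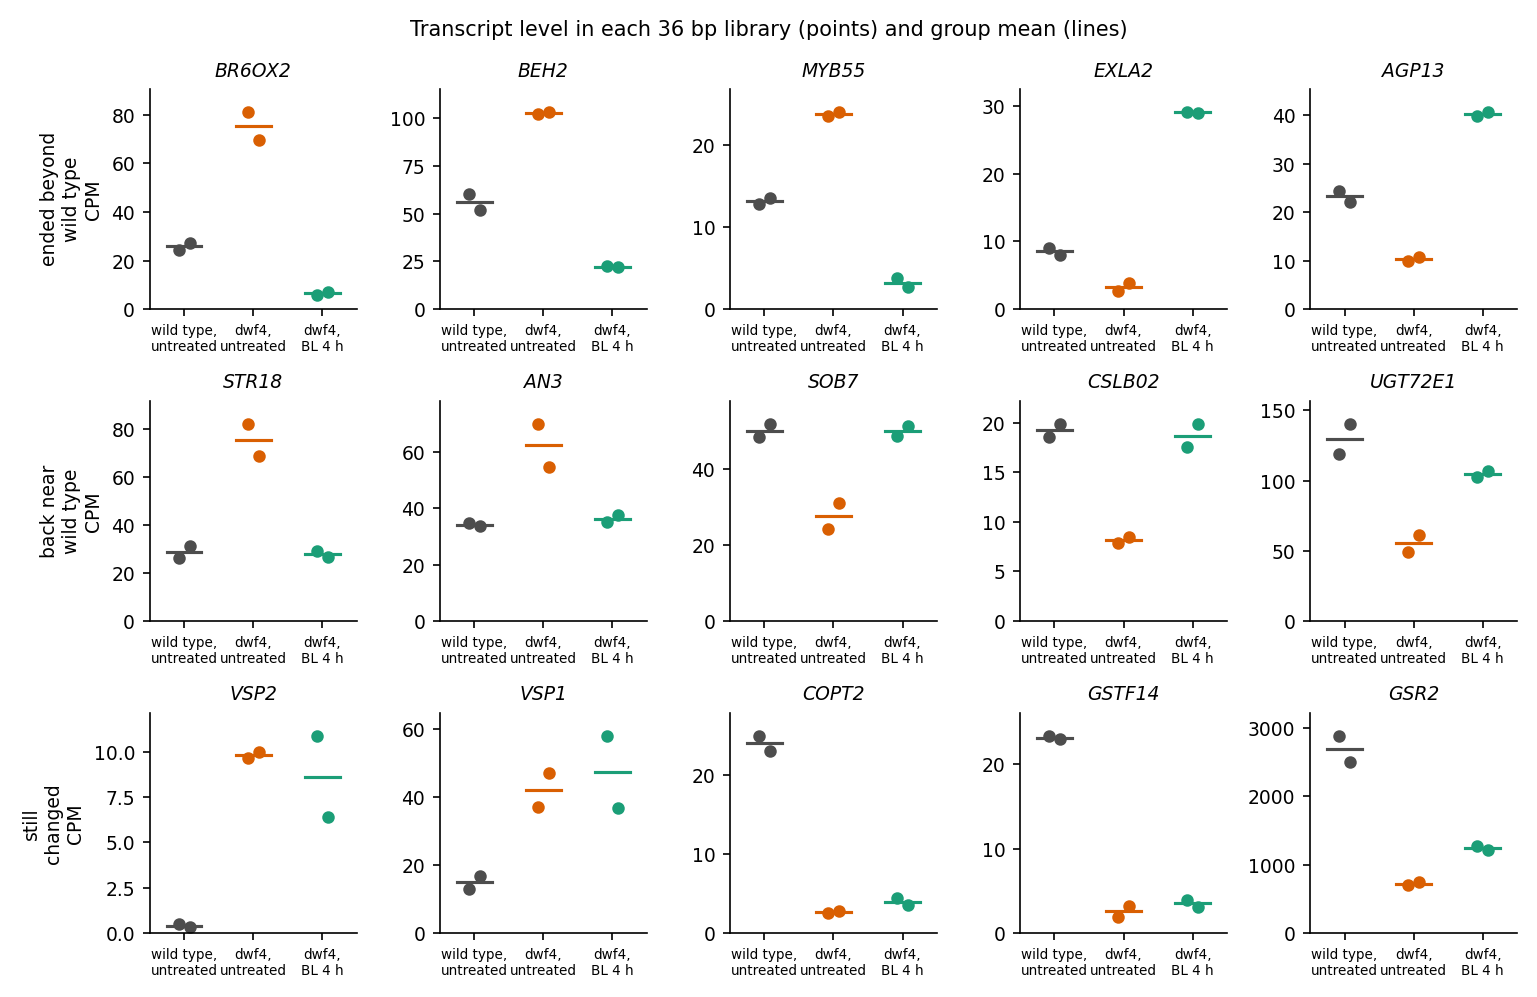
CPM of 5 genes each that ended beyond wild type (top), came back near it (middle) or stayed changed (bottom) in untreated wild type, untreated dwf4 and BL-treated dwf4. Points are libraries, lines are group means and each vertical axis starts at 0. The BL-treated points lie past wild type in the top row and beside it in the middle row. In the bottom row they lie near untreated dwf4, save for GSR2, where they lie between untreated dwf4 and wild type.

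The following genes of differing function stayed low. COPT2, a copper transporter gene, had 25 and 23.2 CPM in wild type, 2.53 and 2.84 in untreated dwf4 and 4.40 and 3.56 after BL (log2 fold change -2.60, SE 0.142, adjusted p = 4.54e-05). GSTF14, a glutathione transferase gene, had 23.3 and 23.0 CPM in wild type, 1.90 and 3.26 in untreated dwf4 and 3.93 and 3.12 after BL. Both dwf4 groups lay far below wild type for these genes, and BL did not pass the test within dwf4. GSR2, a cytosolic glutamine synthetase gene, recovered in part, from 703 and 740.2 CPM to 1275 and 1207, beside 2875 and 2494 in wild type. The BL-treated level was 0.462 times wild type (adjusted p = 8.84e-05), and the rise within dwf4 passed the test (adjusted p = 0.000420). AGL42, a MADS-box gene, remained at 3.22 and 2.25 CPM beside 13.1 and 14.7 in wild type. CDEF1, a cutinase gene, fell further, from 33.8 and 36.9 CPM in wild type to 9.50 and 10.7 in untreated dwf4 and 6.76 and 5.96 after BL. UGT84A1, a glucosyltransferase gene, did so too, ending at 0.133 times wild type.

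Part of the jasmonate genes stayed high, in a comparison where 9.63% of all tested genes were higher and 9.16% lower. Jasmonate is a wound and defence hormone, JAZ proteins repress its responses and are induced by it, and VSP1 and VSP2 are classic response genes. Of 22 listed genes 20 were tested, and 7 were higher and 1, JAR1, was lower than wild type after BL (median log2 fold change 1.36, beside 1.16 in untreated dwf4). The other 12 did not pass the test, and the median was 0.64 without BL-treated replicate 1. VSP2 had 0.481 and 0.324 CPM in wild type, 9.66 and 9.96 in untreated dwf4 and 10.9 and 6.39 after BL, 21.4-fold above wild type (adjusted p = 0.000268, log2 fold change 4.41, SE 0.393). VSP1 had 12.9 and 16.9 CPM in wild type and 57.9 and 36.7 after BL, and the 2 genes are near copies whose reads could have been split. JAZ1, JAZ9 and JAZ10 stayed higher at log2 fold changes of 1.67, 2.32 and 3.39, and each of these calls was lost without either wild-type library. That of JAZ10 was also lost without BL-treated replicate 1.

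The jasmonate genes also differed between libraries of 1 group. JAZ10 had 9.73 and 31.7 CPM in the 2 untreated dwf4 libraries and 45.1 and 12.5 in the BL-treated ones, beside 2.64 and 2.79 in wild type. No dwf4 library reached down to wild type, but untreated and BL-treated dwf4 overlapped. Without wild-type replicate 1 or 2 only 2 of the list were called higher, without BL-treated replicate 1 there were 4, and without BL-treated replicate 2 there were 14. Touch and rapid stress genes, a list that handling could move, showed the same libraries high. CML38, a calmodulin-like gene, had 7.52 and 29.9 CPM in untreated dwf4 and 36.2 and 17.9 after BL, beside 2.72 and 3.31. Such genes had a median log2 fold change of 0.93 after BL, beside 0.91 in untreated dwf4. Of 12 tested, 6 were higher after BL and none was lower, beside 9.63% and 9.16% over all tested genes. That count was 0 to 2 without any 1 of the 4 libraries. Of 10 heat shock genes 5 were tested and none was called. The part of handling in these differences was not tested.

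The following genes stayed high after BL. LEA4-5, which encodes a protein of late embryogenesis and dry tissues, had 2.00 and 2.46 CPM in wild type, 14.7 and 9.29 in untreated dwf4 and 23.8 and 26.8 after BL (log2 fold change 3.49, adjusted p = 9.69e-05). LEA7, of the same kind, had 0.320 and 0.130 CPM in wild type, 18.8 and 4.52 in untreated dwf4 and 14.3 and 19.9 after BL. Its call was lost without wild-type replicate 2. LTI65, a desiccation-induced gene, had no counts in either wild-type library, 68 and 9 counts in untreated dwf4 and 32 and 65 after BL. The untreated dwf4 libraries thus lay far apart for LEA7 and LTI65. After BL, LTI65 was at least 34.8-fold above the level of 3 counts over the wild-type group. This floor covers counting error only, and the call was lost without either wild-type library or BL-treated replicate 2. ASN1, an asparagine synthetase gene induced by low sugar, moved further away, with 1.52 and 0.454 CPM in wild type, 5.62 and 2.76 in untreated dwf4 and 35.2 and 22.3 after BL.

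Some genes that had not passed the test in untreated dwf4 differed from wild type after BL and moved the same way within dwf4. IAA5, an auxin-induced repressor gene, rose from 0.240 and 0.259 CPM in wild type and 0.871 and 0.753 in untreated dwf4 to 7.78 and 4.14 (log2 fold change 4.51, SE 0.477, adjusted p = 0.00065). Untreated dwf4 already lay above wild type for this gene, at levels close to that of 3 counts and without passing the test (log2 fold change 1.66, adjusted p = 0.169). ACS9, another gene for ethylene precursor synthesis, had 0.160 and 1.30 CPM in wild type and 25 and 18.8 after BL. SULTR1;1, a sulfate uptake transporter gene, rose from 2.24 and 2.46 CPM in wild type and 2.06 and 1.34 in untreated dwf4 to 26.6 and 23.0, 10.5-fold above wild type (adjusted p = 3.47e-05). The proline dehydrogenase gene ERD5 rose from 139 and 112 CPM to 622 and 545. Among falls, FEZ, a transcription factor gene of root cap stem cells, had 4.25 and 3.70 CPM in wild type and 0.393 and 0.799 after BL (log2 fold change -2.69, adjusted p = 0.00120). EXPA10, an expansin gene, fell from 4.33 and 3.83 CPM to 0.865 and 0.944, and DOX1, an alpha-dioxygenase gene, from 1386 and 1201 CPM to 397 and 432. In all 7 genes the BL-treated libraries lay apart from the 4 others.

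Genes of wall loosening were divided between families. Their counts stand beside 9.63% higher and 9.16% lower over all tested genes after BL. Xyloglucan endotransglucosylases (XTH) cut and rejoin wall xyloglucan during elongation. Of 33 listed genes 27 were tested, and 16 were higher and 3 lower after BL, at a median log2 fold change of 0.81 beside -0.02 in untreated dwf4. Without wild-type replicate 1 the number higher was 9. The number lower was 0 without either wild-type library or BL-treated replicate 2, and 1 without BL-treated replicate 1. XTH16 crossed wild type from 14.2 and 14.9 CPM to 55.2 and 66.4, beside 23.8 and 30.4 (log2 fold change 1.16, adjusted p = 0.000741), and XTH17 and XTH30 did likewise. XTH12, XTH14 and XTH26 had been high in untreated dwf4 and stayed so, XTH26 with 5.69 and 5.64 CPM in wild type, 12.7 and 13.0 in untreated dwf4 and 24.1 and 18.5 after BL. Expansins, which loosen walls without cutting them, were mixed, with 6 higher and 5 lower of 22 tested of 34 listed (median 0.04). The number higher was 2 without either wild-type library and 3 without BL-treated replicate 1, and the number lower was 1, 2 and 3 without wild-type replicate 1, wild-type replicate 2 and BL-treated replicate 1. Aquaporins, which carry water into growing cells, were 14 higher and 1 lower of 26 tested of 32 listed (median 0.41), and without wild-type replicate 1 there were 9 higher. TIP2;1 of the vacuolar membrane had 157 and 142 CPM in wild type, 136 and 109 in untreated dwf4 and 469 and 435 after BL, with no BL-treated library near the rest. Several aquaporins are close homologues whose reads could have been split.

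Members of 2 families of auxin-induced genes rose above wild type as well, where 9.63% of all tested genes were higher and 9.16% lower. Of 29 Aux/IAA repressor genes 25 were tested, and 12 were higher, 13 did not pass the test and none was lower after BL (median log2 fold change 0.32, beside -0.15 in untreated dwf4). Without either wild-type library 6 were higher. IAA19 rose from 6.65 and 8.82 CPM in wild type and 5.62 and 5.27 in untreated dwf4 to 34.4 and 27.3 (log2 fold change 1.98, adjusted p = 0.000181). Of 8 GH3 genes, whose enzymes conjugate auxin to amino acids, 6 were tested and 5 were higher after BL and none lower, with 2 higher without either wild-type library and 3 without BL-treated replicate 1. GH3.2 crossed wild type from 9.10 and 11.0 CPM to 69.0 and 57.5, beside 18.4 and 16.6. All BL-treated libraries of IAA19 and GH3.2 lay above all others. The auxin efflux carrier gene PIN4 crossed in the other direction, from 54.5 and 46.9 CPM to 19.3 and 22.7, beside 35.7 and 34.8 (log2 fold change -0.75, adjusted p = 0.00260).

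Regulators of the root meristem that differed after BL lay below wild type. Of 13 genes, all tested, 5 were lower and none higher after BL (median log2 fold change -0.50, beside 0.33 in untreated dwf4), and 2 were lower without wild-type replicate 1 and 3 without wild-type replicate 2 or BL-treated replicate 1. The median was -0.10 without BL-treated replicate 1, and 1 member was higher without BL-treated replicate 2. PLT3, which with its relatives PLT1 and PLT2 specifies root stem cells, had 48.1 and 48.6 CPM in wild type, 80.9 and 90.3 in untreated dwf4 and 26.1 and 24.3 after BL (log2 fold change -0.94, SE 0.0825, adjusted p = 0.000250). BRAVO, a regulator that keeps the quiescent centre from dividing, went from 25.2 and 22.8 CPM to 6.13 and 6.47, beside 14.9 and 15.2. Wild type lay between the dwf4 groups in both genes. PLT1, PLT2 and MGP were lower at -0.66, -0.90 and -0.53, calls that were each lost without 2 or more of the 4 libraries. Of 18 mitotic genes 3 were lower, beside 9.16% over all tested genes, and none was higher, at a median of -0.12. Without wild-type replicate 1 no mitotic gene was called, and without wild-type replicate 2 or BL-treated replicate 1 there was 1.

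Root hair genes were 11 higher and 2 lower of 18, all tested (median log2 fold change 0.60, beside 0.30 in untreated dwf4), with 6 higher without either wild-type library. The 2 that were lower, RSL1 and RSL2, encode bHLH regulators, and both calls were lost without either wild-type library. PRP1, a wall protein gene of root hairs, had 85.5 and 86.8 CPM in wild type, 168 and 158 in untreated dwf4 and 249 and 189 after BL, so that dwf4 lay above wild type before and after BL. LRX2 was near wild type before BL and rose to 132 and 126 CPM, beside 69.5 and 69.6. Of 10 type-A cytokinin response regulators 9 were tested and 3 were higher and 1, ARR3, lower, and ARR3 crossed wild type from 37.0 and 26.6 CPM to 7.23 and 5.81, beside 14.7 and 13.4, a call lost without wild-type replicate 1. Without either wild-type library 1 regulator was higher, and without BL-treated replicate 2 there were 5. ARR15 stayed high, with 0.641 and 0.778 CPM in wild type and 4.80 and 3.70 after BL. Of 11 growth-related bHLH genes 7 were tested, and BEE1 was higher while PRE3 and IBH1 were lower, with the call of BEE1 lost without wild-type replicate 2. Of 7 sulfate transporter genes SULTR1;1 was higher and SULTR3;5 lower, the latter a call lost without either wild-type library or BL-treated replicate 2. The lists of this paragraph stand beside 9.63% higher and 9.16% lower over all tested genes. The sulfate transporters, with 1 higher and 1 lower of 7 tested, are near these shares.

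**Figure D4:**
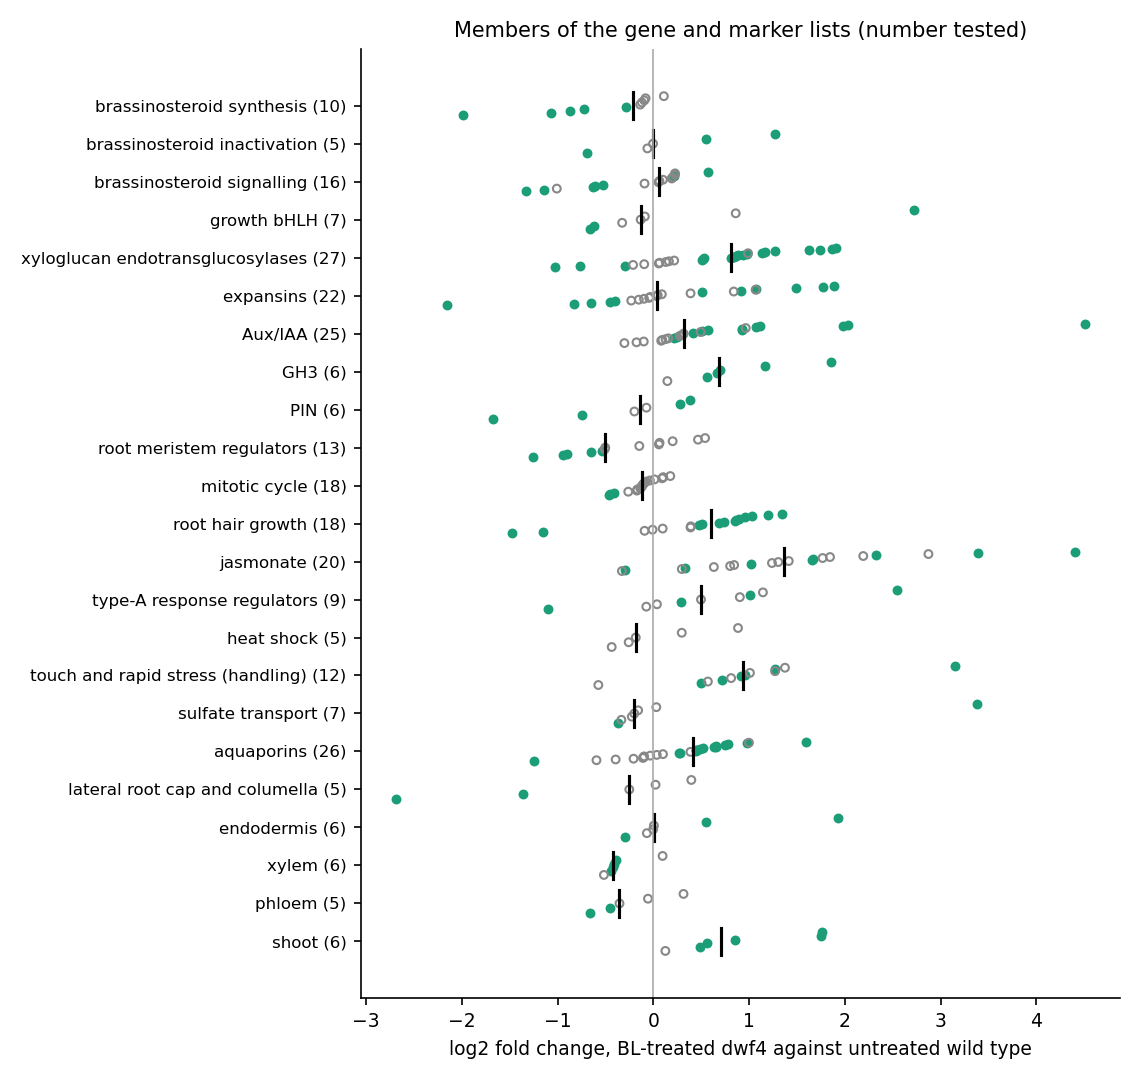
Log2 fold change of BL-treated dwf4 against untreated wild type (horizontal axis) for each tested member of 18 gene lists and 5 marker lists, with the number tested in brackets. Filled points passed the test, open points did not, and black bars are list medians. XTH, Aux/IAA, root hair and jasmonate members lie mostly to the right, and meristem regulators and xylem markers mostly to the left.

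Markers of tissues moved with some of these groups. The marker counts stand beside 9.63% higher and 9.16% lower over all tested genes after BL. Of 6 xylem markers 4 (IRX3, IRX5, XCP1 and XCP2) stayed lower after BL, and the summed level ran from 477 to 508 CPM in wild type, 324 to 341 in untreated dwf4 and 368 to 370.3 after BL. Of 5 phloem markers SUC2 and SEOR1 stayed lower. Of 6 tested endodermal markers 3 were back near wild type, CASP2 and CASP4 among them. CASP1 stayed lower, and CASP5 and the regulator gene MYB36 were higher. Within dwf4 all 6 were higher with BL, beside 7.86% of all tested genes. The summed endodermal level ran from 278 to 288 CPM in wild type, 191 to 207 in untreated dwf4 and 270.5 to 294 after BL. Of 6 tested shoot markers 5 were higher, with summed levels of 59.3 to 64.7 CPM in wild type, 68.9 to 82.3 in untreated dwf4 and 90.2 to 101 after BL. Of 5 root cap markers FEZ and NCED2 were lower, and the summed level ran from 38.5 to 40.0 CPM in wild type and 34.3 to 36.0 after BL. WER of the non-hair epidermis was higher at a log2 fold change of 0.91, and of 3 root hair cell markers EXPA7 was higher. The calls of IRX3, IRX5, SUC2 and MYB36 were lost without wild-type replicate 2, and those of SEOR1, NCED2 and EXPA7 without either wild-type library. Those of NCED2 and EXPA7 were also lost without BL-treated replicate 1, and that of CASP1 without any 1 of the 4 libraries. None of the tested markers was at 0. The number of shoot markers called was 1 to 3 without any 1 of the 4 libraries, and the part of tissue makeup in the other results was not tested.

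Libraries of 101 bp, which had no part in placing the genes, were set beside the placement. Genes that ended past wild type in BL-treated dwf4 were mostly BL-responsive in Col-0. Of the 62 that ended below wild type, 53 (85.5%) were lower upon BL in Col-0, where 6.59% of all 20644 genes tested at 101 bp were called lower. Of the 94 that ended above, 87 (92.6%) were higher upon BL in Col-0, beside 6.37% of all. For genes back near wild type the shares in the matching direction were 39.1% (108 of 276) and 33.3% (176 of 529). Genes that stayed changed showed shares near those of all genes. Of 429 tested genes that stayed higher, 29 (6.76%) were lower upon BL in Col-0, and of 792 that stayed lower, 58 (7.32%) were higher.

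In untreated bri1-116, however, many genes that stayed changed did differ from mock-treated Col-0, as did many genes of the other placements. Of those that stayed higher, 263 (61.3%) were higher in bri1-116, where 16.7% of all genes were. Of those that stayed lower, 574 (72.5%) were lower, where 19.4% of all genes were. For genes back near wild type the matching shares were 64.9% and 76%, and for those beyond it 90.3% and 86.2%. VSP2 was higher in bri1-116 at a log2 fold change of 4.76 (adjusted p = 2.24e-10) and did not pass the test upon BL in Col-0, at 0.23. COPT2 was lower in bri1-116 at -1.66 and BL in Col-0 raised it by 0.32 (adjusted p = 0.0428). EARLI1, a lipid transfer protein-like gene that stayed low in dwf4 at 16.0 and 14.4 CPM beside 58.2 and 55.3 in wild type, was higher in bri1-116, at 1.68. In bri1-116;bzr1-1D against bri1-116, 175 (40.8%) of the genes that stayed higher were lower, beside 19.1% of all genes. Of those that stayed lower, 409 (51.6%) were higher, beside 21.2%. The matching shares were 51.8% and 61.2% for genes back near wild type and 75.8% and 79.8% for those beyond it. The comparisons with bri1-116 and with the double mutant share the bri1-116 libraries. Those of bri1-116 and of BL-treated Col-0 share the mock-treated libraries, so the counts are not independent of each other. Untreated bri1-116 was set against Col-0 mock-treated for 4 h, so genotype and handling cannot be told apart in that comparison.

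The shares for BL in Col-0 moved with single libraries. Without mock replicate 1 or 2 or BL replicate 2 of Col-0, the shares of genes back near wild type were 21.4%, 24.3% and 23.2% for those that had been higher, and 15.1%, 23.4% and 18.3% for those that had been lower. Without untreated wild-type replicate 2 they were 64.5% and 50%, and without replicate 1 they were 53.8% and 55.2%. For genes that stayed changed, the shares ran from 3.26% to 9.57% and from 1.89% to 16.8% over the libraries left out, the lowest without mock replicate 1 and BL replicate 2 and the highest without wild-type replicate 1 and Col-0 BL replicate 1. The shares of genes beyond wild type ran from 73.2% to 100.0% and from 75.5% to 100.0%.

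**Figure D5:**
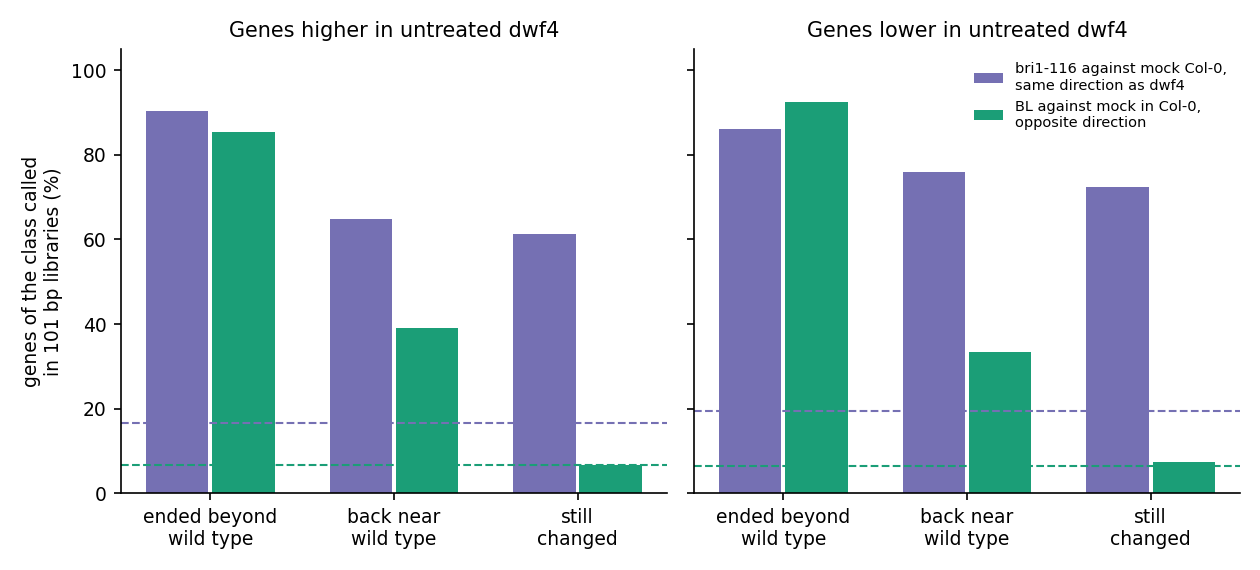
Percent of genes (vertical axis) that ended beyond wild type, came back near it or stayed changed after BL in dwf4, called in 101 bp libraries in bri1-116 in the direction of untreated dwf4 (purple) or upon BL in Col-0 in the opposite direction (green). The left panel holds genes higher and the right panel genes lower in untreated dwf4, and dashed lines give the percent called over all genes. Green bars fall to the dashed line in the genes that stayed changed (6.76% and 7.32%), while purple bars remain at 61.3% and 72.5%.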

How the data were processed

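RNA-seq read counts per locus were used as deposited, raw and whole, for 18 libraries. The build was TAIR10 and the tools were HTSeq, Bowtie and TopHat 1.4.0, per the submitters' processing notes. Annotation release and strand setting were not given in the sources used here, so reads of overlapping or antisense genes may be shared. Each table listed 33602 loci, of which 32835 matched the RefSeq TAIR10.1 annotation that gave the symbols and promoters. Lines for reads in no gene (10.9% to 12.0% of the 36 bp reads) were left out. Counts in genes ran from 11764200 to 15647439 in the 6 libraries of 36 bp and from 11225390 to 36431707 in the 12 of 101 bp. A locus with no count in a 36 bp library may have stood at up to 0.192 to 0.255 CPM, the level of 3 counts, which covers counting error only.

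Libraries of 36 bp and 101 bp were fitted apart, because read length goes with the experiment, using R 4.3.3, limma 3.58.1 and edgeR 4.0.16. Genes passed filterByExpr at a minimum count of 10 and a total of 15, libraries were scaled by TMM, and the quasi-likelihood F test was adjusted per comparison by Benjamini-Hochberg, with genes called at an adjusted p of 0.05. CPM are scaled by TMM. The SE is the absolute log2 fold change divided by the root of F, and it gave the 95% interval used with the 1.5-fold margin. A gene stayed changed when called against wild type before and after BL in 1 direction, and went beyond wild type when called in opposite directions.

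The fit was tested on simulated data, where the share of false calls was above the nominal level, so calls close to the threshold deserve caution. PSAG, LRR XI-23 and ENODL2 fell just inside it (adjusted p 0.0500, 0.0498 and 0.0498) and TXR1, DREB26 and CHIA just outside (0.0501, 0.0502 and 0.0503). The members, the 18 gene lists, the 7 marker lists and the tests were chosen with earlier results of these data known. TCH4 and XTH22 are 1 locus that 2 lists hold. Named genes were, per direction and per placement, the 10 and 6 largest changes among genes with a symbol, non-overlapping libraries and 2 CPM or more on average, with called list members and all brassinosteroid genes. Same-numbered libraries of different groups deviated from their group means with correlations of 0.03, -0.03 and -0.18, so replicate numbers were not treated as pairs. Alternatives were other scalings and filters, DESeq2 1.42.0, other sets of libraries, leaving out each library, a replicate block, an adjusted p of 0.01 and other margins.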

Additional observations from a re-analysis of the deposited data

How the results depend on the processing

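No gene named and called changed direction under any alternative tried. Of the 172 named genes called after BL, 81 kept the call with each of the 4 libraries compared left out in turn and 91 lost it at least once. The genes that differed after BL numbered 2345 with DESeq2 and 1547 at an adjusted p of 0.01, and 1034 to 4651 over the libraries left out. Genes that stayed changed numbered 797 with DESeq2, 449 at an adjusted p of 0.01 and 302 to 1460 over the libraries left out. Genes beyond wild type numbered 240 in a fit of all 18 libraries, 49 at an adjusted p of 0.01 and 23 to 196 over the libraries left out. Genes back near wild type numbered 446 with DESeq2, 1337 with all 18 libraries, 282 at an adjusted p of 0.01, 383 at the narrower margin and 123 to 825 over the libraries left out. Neighbours of DWF4 called numbered 9 with DESeq2, 27 with the 4 libraries alone, 5 at an adjusted p of 0.01 and 4 to 26 over the libraries left out. Of genes that stayed higher, the percentage lower upon BL in Col-0 was 10.9 with no filter on low counts, 3.32 with all 18 libraries, 4.03 at an adjusted p of 0.01 and 3.26 to 9.57 over the libraries left out. Of those that stayed lower, the percentage higher upon BL was 15.6, with no filter, 2.15 at an adjusted p of 0.01 and 1.89 to 16.8 over the libraries left out. Of genes back near wild type the percentages opposite upon BL in Col-0 ran from 21.4 to 64.5 and from 15.1 to 55.2 over the libraries left out. The cause of these shifts was not tested, though leaving out a library leaves 1 in its group, which is then assumed to vary like the others. With the replicate block 3158 genes were called, and 4137 with crossed numbers, a pairing chosen after seeing the data.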
